A study of Mus musculus with 36 samples.

Results

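The effect of regulatory T cells (Treg) on wild-type conventional CD4+ T cells (Tconv) of the HP1a mouse line was described across genes, from 6 of the 36 RNA-seq libraries of the series. By their column names, 3 libraries were HP1a WT Tconv transferred with Treg, hereafter Tconv with Treg, and 3 were HP1a WT Tconv transferred alone. Lethally irradiated B6 hosts received equal parts of syngeneic B6 and semi-allogeneic B6D2F1 bone marrow together with naive Tconv, alone or with wild-type Treg expanded ex vivo from B6 Foxp3-Thy1.1 mice with CD3/CD28 beads, IL-2 and TGF-β. After 3 weeks Vβ6+ Tconv were sorted from the spleen by gates that leave out Thy1.1+ Treg, cells of the B6D2F1 marrow and, where hosts carried CD45.1, host cells. Cells of the syngeneic B6 marrow, which was depleted of T cells before grafting, share the markers of the gate, and their part in the results was not tested. Both groups were sorted from irradiated hosts that had received semi-allogeneic marrow, and the transferred Tconv carried 2 intact copies of the gene encoding HP1α. The donors were wild-type littermates of germline HP1α knock-out (KO) mice on a mixed 129/Sv and C57BL/6 background, and the labels give neither the age of the donors nor how many animals stand behind a library. Levels in 3 libraries of naive HP1a WT CD4+ T cells, taken before any transfer, are given as a reference.

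Treg restrain other T cells through consumption of IL-2, CTLA-4-dependent removal of costimulatory ligands and inhibitory cytokines such as IL-10 and TGF-β. A CD4+ T cell that meets alloantigen without such restraint commonly becomes a Th1 effector, in which the transcription factor T-bet, encoded by Tbx21, drives interferon-γ and chemokine receptors for inflamed tissue. Long stimulation or lack of costimulation leads instead to exhausted or anergic states, in which inhibitory receptors such as PD-1 (Pdcd1), LAG-3 (Lag3) and TIM-3 (Havcr2) and the factor TOX are produced.

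The 250 bases before the start of the reference transcript are shown for 3 genes on which the comparison turned, 2 inhibitory receptor genes that rose with Treg and the Th1 master regulator gene that fell. They were read from the GRCm39 genome and run 5′ to 3′ on the strand of the gene. Capitals mark the single match, 115 bases before the start of Havcr2, to the 10 motifs searched, an AP-1 site. The window before Lag3 overlaps another of its annotated transcripts and is not shown.
Pdcd1, chr1:93980313-93980562, minus strand: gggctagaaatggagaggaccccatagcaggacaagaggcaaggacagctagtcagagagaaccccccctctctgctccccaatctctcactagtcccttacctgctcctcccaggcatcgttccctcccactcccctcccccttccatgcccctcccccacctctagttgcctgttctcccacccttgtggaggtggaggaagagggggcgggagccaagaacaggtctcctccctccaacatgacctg
Havcr2, chr11:46345423-46345672, plus strand: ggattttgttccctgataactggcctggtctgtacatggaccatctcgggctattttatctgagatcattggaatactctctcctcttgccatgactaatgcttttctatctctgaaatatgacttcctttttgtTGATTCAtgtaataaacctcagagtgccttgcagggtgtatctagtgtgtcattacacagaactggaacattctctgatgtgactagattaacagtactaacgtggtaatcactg
Tbx21, chr11:97006159-97006408, minus strand: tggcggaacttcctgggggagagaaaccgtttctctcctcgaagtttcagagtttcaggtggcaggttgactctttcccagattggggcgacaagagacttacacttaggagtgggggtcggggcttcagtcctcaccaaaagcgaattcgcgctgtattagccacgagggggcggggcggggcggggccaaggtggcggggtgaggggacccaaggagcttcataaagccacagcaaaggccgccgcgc

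The 6 libraries held 37029519 to 49106975 counts assigned to genes, and 20158 to 21784 genes were detected in each. Replicate 3 of Tconv with Treg stood apart: its log2 CPM correlated with those of the other replicates of its group at 0.9804 and 0.9833, against 0.993 to 0.9969 for the other pairs within groups. Leading counts are therefore also given without it. The cells matched their labels as CD4+ T cells, with Cd4 at 1020 to 1100 CPM (counts scaled to a common library size) in Tconv and 701 to 1350 CPM in Tconv with Treg, and Cd8a at 0.327 CPM or less. Trbv19, the gene segment of Vβ6, made up 84.0%, 77.2% and 91.7% of all Trbv counts in Tconv and 61.3%, 71.9% and 67.8% in Tconv with Treg, against 8.18% to 8.74% in naive cells. The 2 groups did not overlap, and the difference of 17.3 percentage points gave p = 0.1 in a two-sided exact permutation test, the smallest value that 3 against 3 libraries allow. As nothing in the labels says that the replicates came from separate animals, p-values measure the spread between these libraries, which may be technical in part.

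Treg co-transfer was accompanied by a broad change of the Tconv transcriptome. Of 15627 genes tested, 553 rose (3.54%) and 379 fell (2.43%), together 5.96%, in edgeR's quasi-likelihood test (Benjamini-Hochberg adjusted p under 0.05, log2 fold change beyond 1 in either direction), and DESeq2 called 9.95%. These shares of all genes tested are the background for the counts of called members in the lists below. Genes that rose had a median log2 fold change of 2.97 and genes that fell one of -1.86, while the median over all genes tested was 0.03. The 3 values of a group lay wholly above or below those of the other for all 932 called genes, and for 5397 of the 15627 genes tested (34.5%). Without replicate 3 of Tconv with Treg 1450 genes were called, 879 of them among the 932, whereas leaving out a Tconv library gave 306 to 378 calls. A core of 258 genes, 148 higher and 110 lower, was called in every fit that left out 1 library. In libraries of bulk cells, fewer cells of a type and less RNA per cell cannot be told apart.

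**Figure D1:**
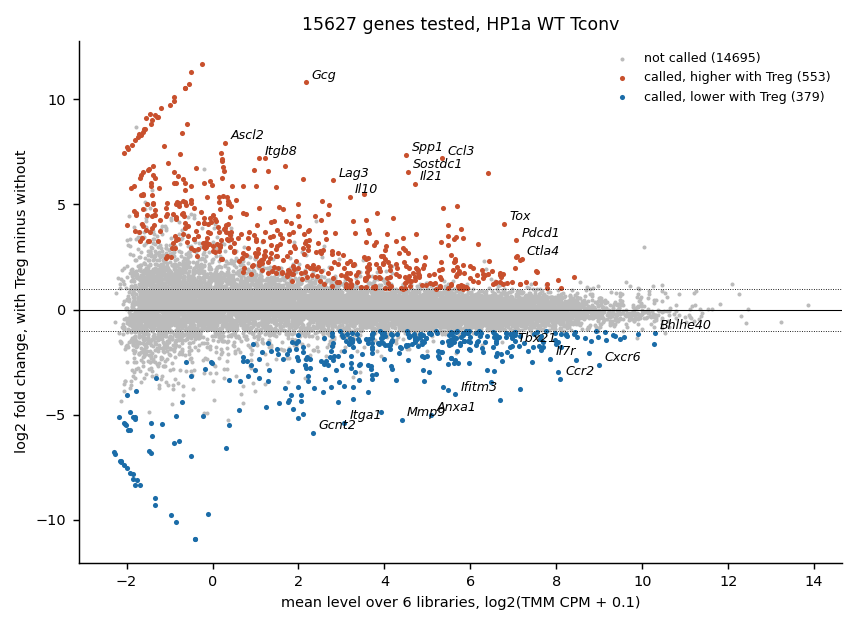
Log2 fold change of Tconv with Treg against Tconv (vertical axis) against the mean level over the 6 libraries as log2(CPM + 0.1) (horizontal axis), 1 point per gene tested. Red points are the 553 genes called higher with Treg, blue points the 379 called lower and grey points the other genes; dotted lines mark a log2 fold change of 1 in either direction, and the fitted values of genes with no count in 1 group, along the slanted edges, depend on the prior count of the fit.

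Inhibitory receptor genes did not move as 1 block. Of 16 tested, 7 rose (43.8%, against 3.54% of all genes tested) and 4 fell (25.0%, against 2.43%), with a median log2 fold change of 0.50. Without replicate 3 of Tconv with Treg 6 rose and 4 fell, and without replicate 1 or 2 of Tconv 5 rose and 1 fell. Lag3 (chr6:124881320-124888765), whose protein binds MHC class II, was at 0.875, 1.02 and 0.516 CPM in Tconv and at 47.1, 55.2 and 66.5 CPM in Tconv with Treg. Every library with Treg lay far above every library without, and the log2 fold change was 6.15 ± 0.32 (SE, n = 3 per group, adjusted p = 0.000309).

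Pdcd1 (chr1:93966027-93980312), which encodes PD-1, stood at 54.9, 43.1 and 35.9 CPM in Tconv and rose to 548, 473 and 262 CPM in Tconv with Treg. Havcr2 (chr11:46345673-46374149), which encodes TIM-3, went from 5.39, 7.76 and 4.99 CPM to 43.1, 44.6 and 40.7 CPM. Ctla4 (chr1:60926159-60954991), which encodes a receptor that competes with CD28 for its ligands, went from 67.0, 66.3 and 59.4 CPM to 296, 340 and 367 CPM. None of these groups overlapped, the log2 fold changes were 3.29, 2.85 and 2.42 for Pdcd1, Havcr2 and Ctla4 (adjusted p = 0.00186, 0.000922 and 0.00052), and in each case the lowest library with Treg lay far above the highest without. Tigit, a receptor for CD155, changed less, from 27.9, 23.5 and 26.6 CPM to 118, 68.4 and 127 CPM, a log2 fold change of 2.04 ± 0.26 (SE, adjusted p = 0.00514). The other 2 genes that rose, Btla and Cd160, lost their call in some fits that left out 1 library.

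The inhibitory receptor genes that fell with Treg were Lilrb4a, Lair1, Cd96 and Klrg1. Lilrb4a (chr10:51367027-51372707), an inhibitory receptor of activated leukocytes, fell from 489, 325 and 386 CPM to 112, 91.8 and 102 CPM (log2 fold change -1.93 ± 0.19, SE, adjusted p = 0.00222). Naive cells held 0.0184 CPM or less, far below both groups, which did not overlap. Klrg1, a marker of terminally differentiated effector cells, was at 38.4, 29.8 and 48.5 CPM in Tconv and at 13.7, 11.7 and 20.9 CPM with Treg. The calls of Lair1, Cd96 and Klrg1 were each lost on omission of single libraries, at an adjusted p of up to 0.096, 0.0918 and 0.168 without replicate 3 of Tconv.

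**Figure D2:**
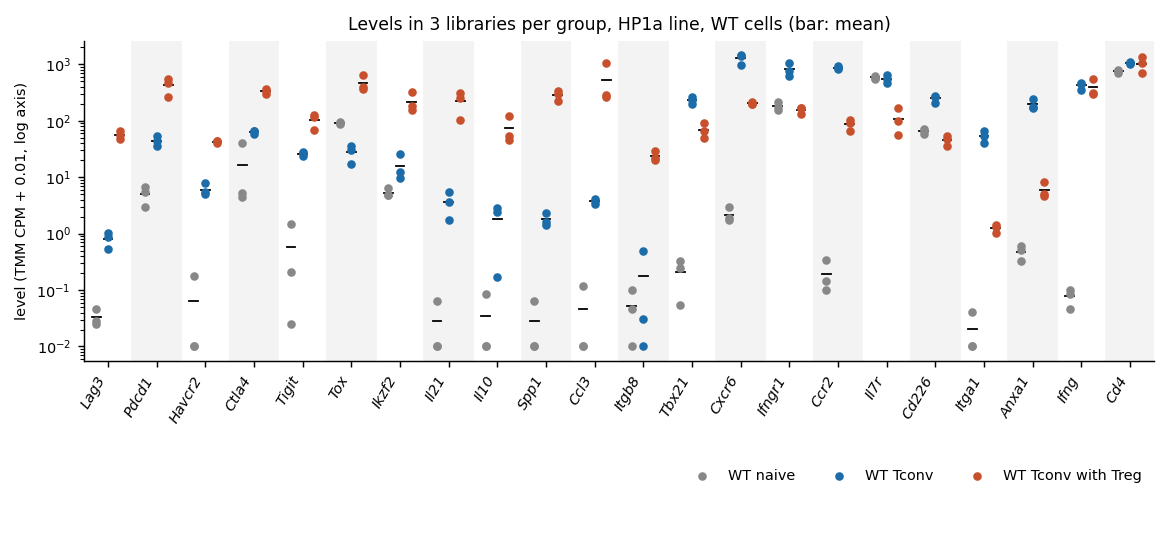
Level of 22 genes in CPM + 0.01 on a log axis (vertical) for each of 3 libraries of naive HP1a WT cells (grey), Tconv (blue) and Tconv with Treg (red), with bars at the group means. From Lag3 to Itgb8 all red points lie above the blue ones, from Tbx21 to Anxa1 all lie below, and the 2 groups overlap for Ifng and Cd4.

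Among factors of the calcineurin-NFAT response and of exhaustion, both Tox and Tox2 rose. Of 12 TOX, NR4A, EGR and NFAT genes tested, 4 rose (33.3%, against 3.54% of all genes tested) and 1 fell (8.33%, against 2.43%), with a median log2 fold change of 0.97. Without replicate 3 of Tconv with Treg 5 rose and 1 fell, and without any 1 of the Tconv libraries 2 rose and 0 fell. Tox (chr4:6686353-6991644), a factor required for persistence of exhausted T cells, was at 36.3, 31.0 and 17.4 CPM in Tconv and at 395, 362 and 637 CPM with Treg. Naive cells held 87.8 to 93.8 CPM, so that Tconv alone lay below and Tconv with Treg above the level before transfer. Its relative Tox2 (chr2:163045021-163166191), a factor of follicular helper cells, went from 23.3, 24.5 and 8.85 CPM to 254, 211 and 123 CPM (log2 fold change 3.4 ± 0.44, SE, adjusted p = 0.00588).

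Early response genes of T cell receptor signalling were divided. Nr4a1, induced within minutes of receptor engagement, overlapped between the groups (326, 330 and 185 CPM against 267, 421 and 205 CPM, adjusted p = 0.861), and Nr4a3 was not called (adjusted p = 0.177). Nr4a2 rose from 24.2, 18 and 11.2 CPM to 112, 84.8 and 369 CPM and Egr2, a factor of anergy, from 28.7, 26.2 and 12.5 CPM to 115, 103 and 38.8 CPM. Egr1 fell, with 1150, 652 and 556 CPM in Tconv against 320, 308 and 201 CPM with Treg. The calls of Nr4a2, Egr2 and Egr1 were kept in 3, 1 and 1 of the 6 fits that left out 1 library. Without replicate 3 of Tconv the adjusted p was 0.104 for Nr4a2 and 0.165 for Egr2, and without replicate 1 of Tconv it was 0.089 for Egr1. Nfatc1 had a log2 fold change of 1.01 ± 0.31 (SE) with an adjusted p of 0.103. It was called higher without replicate 3 of Tconv with Treg (log2 fold change 1.31, edgeR adjusted p = 0.000658) and by DESeq2 (1.02, adjusted p = 0.014). Of 22 T cell receptor signalling genes 1, Ubash3b, a phosphatase gene that dampens the signal, was called, a share of 4.55% against 3.54% of all genes tested that rose (log2 fold change 1.69, adjusted p = 0.0136 and, without replicate 3 of Tconv, 0.0877).

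Genes of follicular helper T cells, which live in B cell follicles, had positive values throughout, but fewer were called when any Tconv library was left out. The same held over all genes tested, with 306 to 378 calls in those fits against 932. Of 15 tested, 13 rose and 0 fell, with a median log2 fold change of 2.57, against 3.54% of all genes tested that rose. All 15 had a positive log2 fold change, and 14 rose without replicate 3 of Tconv with Treg, but 4 without replicate 1 or 3 of Tconv and 5 without replicate 2 of Tconv. Il21 (chr3:37276908-37286785), the cytokine by which these cells help B cells, went from 5.39, 3.65 and 1.71 CPM to 315, 251 and 103 CPM (log2 fold change 5.98 ± 0.59, SE, adjusted p = 0.00212). Ascl2, a factor that starts this programme, was at 0.109, 0.0212 and 0.0543 CPM in Tconv and at 19.7, 22.8 and 1.87 CPM with Treg. Replicate 3 was the lowest library with Treg for both genes.

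Bcl6, the master regulator of follicular helper cells, was at 8.80, 6.80 and 4.51 CPM against 45.6, 53.9 and 18.2 CPM with Treg (log2 fold change 2.57 ± 0.43, SE, adjusted p = 0.0143), and Cxcr5, their homing receptor, at 30.2, 30.5 and 14.8 CPM against 168, 161 and 41.3 CPM. Again replicate 3 was the lowest library with Treg, although the groups did not overlap. The calls of Pdcd1, Tox2, Il21 and Cd200 were present in every fit that left out 1 library. The other 9 were lost in at least 1 of them, among them those of Bcl6 (adjusted p = 0.0834), Cxcr5 (0.181), Ascl2 (0.0662) and Pou2af1 (0.0788), all without replicate 3 of Tconv. Icos, a costimulatory receptor of the same cells, had a log2 fold change of 0.60 with an adjusted p of 0.056.

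Genes linked to IL-10 production and to anergy were divided. Il10 (chr1:130947581-130952711) was at 2.87, 2.42 and 0.163 CPM in Tconv and at 53.6, 45.2 and 123 CPM with Treg (log2 fold change 5.38 ± 0.87, SE, adjusted p = 0.013, and 0.0643 without replicate 2 of Tconv). Maf, a factor that induces Il10, was at 105, 126 and 78.8 CPM against 283, 232 and 555 CPM (adjusted p = 0.0261, but 0.0567 with the replicate number as a block and 0.139 without replicate 3 of Tconv), while Prdm1, another, overlapped between the groups. Ahr, the aryl hydrocarbon receptor gene, fell from 53.5, 40.7 and 36.9 CPM to 10.7, 18.9 and 10.1 CPM (adjusted p = 0.0145, and 0.0768 without replicate 1 of Tconv). Over 11 genes tested of this group 4 rose (36.4%, against 3.54% of all genes tested) and 2 fell (18.2%, against 2.43%).

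The anergy markers FR4 (Izumo1r) and CD73 (Nt5e) are used together to identify anergic CD4+ T cells. Izumo1r went from 67.7, 72.3 and 37.0 CPM to 334, 411 and 259 CPM (log2 fold change 2.53 ± 0.30, SE, adjusted p = 0.0042) and was called in every fit that left out 1 library. Nt5e went from 53.7, 65.0 and 67.8 CPM to 222, 263 and 85.5 CPM (adjusted p = 0.0399), a call lost with the block (0.0651) and on omission of any library but replicate 3 of Tconv with Treg (0.0846 to 0.191). Rnf128, the ubiquitin ligase gene GRAIL, rose from 6.49 to 8.03 CPM in Tconv to 23.1 to 37.7 CPM with Treg (adjusted p = 0.0042). Entpd1, which encodes CD39, overlapped between the groups (log2 fold change -0.20, adjusted p = 0.721). Of 11 anergy and adenosine genes tested, 3 rose (27.3%, against 3.54% of all genes tested) and 1, Ndrg1, fell (9.09%, against 2.43%).

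Transcription factors of the Treg lineage were examined for themselves and as a check of the sort. Foxp3 was at 12.1, 9.05 and 4.45 CPM in Tconv and at 13.5, 69.3 and 17.8 CPM with Treg. The groups did not overlap, and the difference was carried mainly by replicate 2. It was not called by edgeR (adjusted p = 0.129) but was by DESeq2 (log2 fold change 2.0, adjusted p = 0.00971). Ikzf2 (chr1:69570373-69727004), which encodes Helios, was at 25.8, 12.5 and 9.66 CPM against 182, 156 and 321 CPM (log2 fold change 3.82 ± 0.47, SE, adjusted p = 0.005), and replicate 2, which was highest for Foxp3, was lowest for Ikzf2 among the libraries with Treg. Il2ra, which encodes CD25, pointed the other way without overlap, with 42.3, 41.8 and 39.4 CPM against 10.7, 27.9 and 14.6 CPM. It was not called by edgeR (adjusted p = 0.0801) but was by DESeq2 (log2 fold change -1.18, adjusted p = 0.00784). Of 13 Treg markers tested 4 rose by edgeR (30.8%, against 3.54% of all genes tested), namely Ctla4, Ikzf2, Tnfrsf9 and Gpr83, and 0 fell. DESeq2 called 6 higher and 1 lower. The summed level of the 13 markers was 926 to 1270 CPM in Tconv and 1430 to 1750 CPM with Treg. What part residual Treg had in these values was not tested.

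Of 21 effector cytokine genes tested, 4 rose (Il21, Il10, Spp1 and Tnfsf8) and 1 fell, Csf2, against 3.54% and 2.43% of all genes tested. Without replicate 3 of Tconv with Treg 4 rose and 4 fell, in a fit that called 1450 genes against 932 in the main comparison. Spp1 (chr5:104582165-104589235), which encodes osteopontin, was at 1.61, 2.27 and 1.44 CPM against 228, 337 and 295 CPM (log2 fold change 7.36 ± 0.29, SE, adjusted p = 0.000219). Csf2, which encodes GM-CSF, was at 37.5, 53.8 and 20.5 CPM against 8.12, 6.74 and 6.71 CPM; its adjusted p of 0.00949 became 0.0512 without replicate 1 of Tconv. Il17a overlapped between the groups (edgeR adjusted p = 0.194), although DESeq2 called it higher (log2 fold change 2.18, adjusted p = 0.0399). Il2 was at 19, 13.6 and 13.3 CPM against 5.40, 8.94 and 4.92 CPM without passing the edgeR test (adjusted p = 0.054). It was called lower by DESeq2 (log2 fold change -1.22, adjusted p = 0.00168) and by edgeR without replicate 3 of Tconv with Treg (-1.08, adjusted p = 0.0446).

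Chemokine ligand genes had 4 members higher (57.1%, against 3.54% of all genes tested) and 0 lower of 7 tested, with a median log2 fold change of 3.0. Ccl3 (chr11:83538670-83540191), a ligand of CCR1, was at 3.34, 3.77 and 4.13 CPM in Tconv and at 286, 261 and 1050 CPM with Treg. The neighbouring Ccl4 (chr11:83553383-83555509) was at 10.3, 10.1 and 10.7 CPM against 471, 379 and 1810 CPM (log2 fold change 6.48 ± 0.72, SE, adjusted p = 0.00348). Replicate 3 was far above the other libraries with Treg for both, which in turn lay far above all Tconv libraries. Ccl5 spread widely, from 393, 409 and 733 CPM to 2380, 566 and 8830 CPM, overlapped between the groups and was not called by edgeR (adjusted p = 0.0946). DESeq2 called it higher (log2 fold change 3.01, adjusted p = 0.0196). Xcl1 and Cxcl10 rose, with calls lost in several fits that left out 1 library (highest adjusted p 0.145 without replicate 3 and 0.137 without replicate 1 of Tconv), and for Xcl1 also with the block (0.0692).

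The Th1 core genes that edgeR called in the main comparison all fell, and Ifng, the interferon-γ gene, was not among them. Of 21 Th1 core genes tested 0 rose and 7 fell, against 2.43% of all genes tested that fell, with a median log2 fold change of -0.89 and 18 negative values. Without replicate 3 of Tconv with Treg 8 fell, and without replicate 1 or 3 of Tconv 3 fell. Without replicate 2 of Tconv with Treg 1 rose and 8 fell. DESeq2 called 8 lower and 1 higher, Ccl5, which is on this list and had a log2 fold change of 3.0 by edgeR (adjusted p = 0.0946) and 3.01 by DESeq2 (adjusted p = 0.0196). Tbx21 (chr11:96988897-97006158) was at 231, 198 and 265 CPM in Tconv and at 92.4, 65.4 and 50.1 CPM with Treg, and was called in every fit that left out 1 library. Ifng (chr10:118276951-118281797), in contrast, was at 469, 351 and 452 CPM against 315, 303 and 560 CPM, and the groups overlapped (log2 fold change -0.07 ± 0.28, SE, adjusted p = 0.908). Replicate 3 alone among the libraries with Treg did not lie below every Tconv library. Without it the log2 fold change was -0.45 (edgeR adjusted p = 0.0648). Tnf was likewise not called (adjusted p = 0.24). These values are RNA levels and not protein. By flow cytometry of restimulated Vβ6+ cells, the study reports that Treg inhibited production of IFN-γ protein by wild-type Tconv.

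Receptors that place or sustain Th1 cells fell as well. Cxcr6 (chr9:123635534-123640825), a receptor of tissue-homing effector cells, went from 1450, 973 and 1420 CPM to 214, 198 and 202 CPM (log2 fold change -2.61 ± 0.20, SE, adjusted p = 0.000846). Ifngr1 (chr10:19467697-19485977), the ligand-binding chain of the interferon-γ receptor, went from 777, 625 and 1080 CPM to 166, 167 and 133 CPM. Libraries with Treg were close to each other for both, and Ifngr1 returned to the level of naive cells (155 to 216 CPM) while Cxcr6 remained far above it (1.73 to 2.91 CPM).

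The receptors for IL-12 and IL-18 also fell. Il12rb2 was at 25.1, 22.0 and 27.7 CPM against 7.32, 7.24 and 2.20 CPM, and Il18rap at 272, 175 and 254 CPM against 46.1, 28.1 and 83.8 CPM. Their calls were lost in 4 of 6 fits that left out 1 library, at an adjusted p of up to 0.12 and 0.102, both without replicate 3 of Tconv. Bhlhe40, a factor that sustains Th1 cytokines, went from 2090, 1680 and 1830 CPM to 910, 930 and 709 CPM (log2 fold change -1.10, adjusted p = 0.00917, and 0.0639 without replicate 1 of Tconv). Cxcr3 narrowly missed the fold threshold (log2 fold change -0.99, adjusted p = 0.0272).

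Th2 and Th17 core genes fell rather than rose where edgeR called them in the main comparison. Of 8 Th2 core genes tested 3 fell (37.5%, against 2.43% of all genes tested): Gata3, the Th2 master regulator gene (356, 616 and 409 CPM against 131, 185 and 122 CPM), Il4ra and Il1rl1, which encodes the IL-33 receptor. All 3 calls were lost in at least 1 fit that left out 1 library, Gata3 and Il1rl1 narrowly (highest adjusted p 0.0533 without replicate 3 and 0.0631 without replicate 1 of Tconv) and Il4ra by more (0.112 without replicate 2 of Tconv). Of 13 Th17 core genes 3 fell (23.1%), Ltb4r1, Ahr and Rora, the last lost in 4 fits that left out 1 library (highest adjusted p 0.105). The Th17 list nonetheless had a median log2 fold change of 0.29, with 8 positive values. DESeq2 called 2 of its genes higher and 4 lower, and edgeR called 1 higher and 1 lower without replicate 1 of Tconv with Treg. Ltb4r1, which encodes a leukotriene B4 receptor, went from 33.0, 28.3 and 67.7 CPM to 2.89, 6.06 and 4.02 CPM (log2 fold change -3.28 ± 0.43, SE, adjusted p = 0.00603).

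Receptors and adhesion molecules that guide cells into tissue had more members called lower than higher. Of 19 chemokine and egress receptors tested 2 rose and 4 fell, and of 17 integrin and adhesion genes 2 rose and 6 fell (median log2 fold changes -0.82 and -0.90), against 3.54% and 2.43% of all genes tested. Without any 1 of the Tconv libraries 3 fell in each list. Ccr2 (chr9:123901982-123913594), the receptor for CCL2, went from 839, 852 and 937 CPM to 65.2, 105 and 90.6 CPM (log2 fold change -3.30 ± 0.21, SE, adjusted p = 0.00052). Itga1 (chr13:115089632-115238677), the α chain of the collagen-binding integrin VLA-1, went from 65.9, 54.9 and 39.9 CPM to 1.02, 1.31 and 1.41 CPM (log2 fold change -5.39 ± 0.28, SE, adjusted p = 0.000309). Its neighbour Itga2 (chr13:114969617-115068636), the α chain of VLA-2, went from 24, 21.8 and 27.6 CPM to 4.28, 2.97 and 3.25 CPM. For these 3 genes the lowest Tconv library lay far above the highest library with Treg, and all were called in every fit that left out 1 library.

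In the opposite direction, Itgb8 (chr12:119121748-119202584), an integrin chain that activates latent TGF-β, was at 0.492, 0.0212 and 0 CPM in Tconv and at 22.3, 28.6 and 20.1 CPM with Treg (log2 fold change 7.19 ± 0.98, SE, adjusted p = 0.00716). Furin, a protease gene whose product processes the TGF-β precursor, fell from 413, 219 and 193 CPM to 56.9, 68.8 and 50.8 CPM (log2 fold change -2.19, adjusted p = 0.00778). Of 17 TGF-β and SMAD genes tested 1 rose (5.88%, against 3.54% of all genes tested) and 2 fell (11.8%, against 2.43%), the second being Smad3, whose log2 fold change moved to -0.96 without replicate 3 of Tconv with Treg and whose adjusted p was 0.0758 without replicate 1 of Tconv. Cxcr4 rose and S1pr1, the receptor for egress from lymphoid tissue, fell, the latter with a log2 fold change of -1.03 that became -0.90 without replicate 3 of Tconv with Treg. The adjusted p without replicate 3 of Tconv was 0.0554 for Cxcr4 and 0.114 for S1pr1.

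Costimulatory receptors and ligands had 6 genes higher (28.6%, against 3.54% of all genes tested) and 2 lower (9.52%, against 2.43%) of 21 tested. Tnfrsf9 (chr4:150999019-151030559), which encodes 4-1BB, went from 18, 19.9 and 9.96 CPM to 127, 189 and 169 CPM (log2 fold change 3.37 ± 0.31, SE, adjusted p = 0.00169), Tnfsf8, the CD30 ligand gene, from 67.2, 74.6 and 52.6 CPM to 349, 420 and 222 CPM, and Cd27 from 96.2, 124 and 84.8 CPM to 375, 294 and 368 CPM. Cd226, whose product DNAM-1 competes with TIGIT for CD155, went the other way, from 269, 209 and 274 CPM to 36.5, 52.8 and 47.0 CPM (log2 fold change -2.43 ± 0.20, SE, adjusted p = 0.00122). Tigit thus rose and Cd226 fell, with no overlap in either case. This contrast did not hold for every inhibitory receptor gene, as Cd96 fell (log2 fold change -1.56, edgeR adjusted p = 0.0175), a call lost in some fits that left out 1 library. With the block, Tnfsf4 and Tnfsf14 lost their calls (adjusted p = 0.0614 and 0.0849).

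Cytotoxic genes were mixed, with 2 higher (11.8%, against 3.54% of all genes tested) and 3 lower (17.6%, against 2.43%) of 17 tested, and 1 and 4 without replicate 3 of Tconv with Treg. Klrc1, which encodes NKG2A, went from 115, 82.4 and 137 CPM to 16.4, 19.1 and 19.4 CPM (log2 fold change -2.57 ± 0.22, SE, adjusted p = 0.0013). Prf1, the perforin gene, was at 17.4, 20.7 and 25.3 CPM against 90.1, 39.8 and 95.5 CPM (adjusted p = 0.0197, and 0.11 without replicate 1 of Tconv), whereas Gzmb, the granzyme B gene, overlapped between the groups (adjusted p = 0.831). Cst7 rose, while Ctsw and Klrk1 fell, and all 3 calls were lost in some fits that left out 1 library (highest adjusted p 0.143, 0.0687 and 0.145, each without replicate 3 of Tconv).

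Genes high in naive and memory cells were divided, with 7 higher (36.8%, against 3.54% of all genes tested) and 3 lower (15.8%, against 2.43%) of 19 tested. Myb (chr10:21000834-21036883), a factor of stem-like T cells, went from 8.31, 8.29 and 4.29 CPM to 75.7, 88.5 and 50.1 CPM, above the 18.7 to 50.6 CPM of naive cells for the higher 2 libraries. Bach2, which restrains effector genes, rose from 9.88 to 11 CPM to 28.4 to 31.4 CPM (log2 fold change 1.56 ± 0.17, SE, adjusted p = 0.00273) and Igfbp4 from 16 to 21.0 CPM to 74.4 to 104 CPM, both still below naive cells. Tcf7 and Lef1, the central factors of the stem-like state, were not called (adjusted p = 0.592 and 0.742), and Tcf7 was at 867, 1140 and 345 CPM with Treg against 569 to 645 CPM without. Satb1 fell from 438, 599 and 525 CPM to 153, 195 and 103 CPM, and naive cells held 1240 to 1370 CPM, so that this chromatin organiser gene lay farther from the naive level with Treg than without.

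Cytokine receptor and signalling genes had 0 members higher and 7 lower (23.3%, against 2.43% of all genes tested) of 30 tested. Without replicate 3 of Tconv with Treg 2 were higher and 7 lower, and without replicate 1 or 3 of Tconv 0 were higher and 3 lower. Il7r (chr15:9505874-9530262), the receptor for the survival cytokine IL-7, went from 551, 470 and 646 CPM, near the 558 to 633 CPM of naive cells, to 55, 167 and 100 CPM (log2 fold change -2.34 ± 0.38, SE, adjusted p = 0.0135, and 0.0704 without replicate 3 of Tconv). Cish (chr9:107173225-107179983), a feedback inhibitor induced through STAT5, went from 366, 477 and 394 CPM to 67.8, 79.2 and 69.5 CPM (log2 fold change -2.48 ± 0.17, SE, adjusted p = 0.00052), and Socs2, another STAT5 target, from 143, 113 and 140 CPM to 11.9, 28.1 and 26.1 CPM. Both were called in every fit that left out 1 library.

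Cell cycle genes showed small positive differences of which almost none passed the test. All 43 mitosis genes tested had a positive log2 fold change, with a median of 0.60 against 0.03 over all genes tested, and 0 were called by edgeR (17 had an unadjusted p under 0.05, DESeq2 called 2, and edgeR called 1 without replicate 3 of Tconv with Treg). Mki67 was at 63.6, 100 and 62.4 CPM against 127, 88.1 and 107 CPM, so that the groups overlapped (adjusted p = 0.226). Of 45 DNA replication genes only Tk1 was called (higher, log2 fold change 1.36, adjusted p = 0.029, and 0.146 without replicate 3 of Tconv), a share of 2.22% against 3.54% of all genes tested, and Mcm2 overlapped between the groups.

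In the metabolic and housekeeping lists the called genes are set beside the 5.96% called of all genes tested. In glycolysis and the pentose phosphate pathway 1 of 24 genes (4.17%) was called, Slc2a3 (chr6:122704768-122778599), which encodes the glucose transporter GLUT3, with 233, 211 and 246 CPM in Tconv against 32.5, 33.0 and 25.3 CPM with Treg (log2 fold change -2.89 ± 0.16, SE, adjusted p = 0.000309). In naive cells it was at 50.4 to 59.6 CPM, above the level with Treg. In the cholesterol and fatty acid list 1 of 28 (3.57%) was called, Pmvk, which rose. By edgeR 0 genes were called among 74 nuclear genes of oxidative phosphorylation (9 with an unadjusted p under 0.05, 1 called by DESeq2), 84 ribosomal protein genes (6 and 0), 13 endoplasmic reticulum chaperone genes (0 and 0) and 18 interferon-inducible GTPase genes (5 and 0). All 13 mitochondrially encoded genes had a positive log2 fold change, with a median of 0.88, and an unadjusted p under 0.05, yet 0 were called by edgeR and 4 by DESeq2. The same count of 0 held for 9 amino acid transporter genes (2 with an unadjusted p under 0.05, 0 called by DESeq2) and 16 genes of the integrated stress response (1 and 0), of which 1 and 2 were called without replicate 3 of Tconv with Treg. Of 29 interferon-stimulated genes 1 rose (3.45%), Ifi27l2a, and 2 fell (6.9%), Oas2 and Oas3, and the call of Oas2 was lost with the block (adjusted p = 0.0623). Pmvk, Ifi27l2a and Oas2 also lost their calls in most fits that left out 1 Tconv library, with an adjusted p of up to 0.124, 0.162 and 0.173, each without replicate 1.

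Genes of H3K9 methylation and HP1, of Polycomb and of DNA methylation were not among those called. Of 20 genes of H3K9 methylation and HP1 proteins, 29 Polycomb genes and 15 DNA methylation genes 0 were called by edgeR or DESeq2, with 5, 8 and 3 at an unadjusted p under 0.05 and median log2 fold changes of -0.04, -0.03 and 0.13. Cbx5, the gene of HP1α, was at 28.5, 30.3 and 26.3 CPM in Tconv and at 47.0, 34.5 and 61.0 CPM with Treg without passing the test (log2 fold change 0.78 ± 0.23, SE, adjusted p = 0.0936). Cbx3, the gene of HP1γ, had a log2 fold change of 0.43 (adjusted p = 0.237) and Cbx1, the gene of HP1β, one of 0.63 (adjusted p = 0.149). Of 55 histone genes 1.82% were called in each direction, below the 3.54% higher and 2.43% lower of all genes tested. Of these 1 rose, H2bc14 (0.109, 0.233 and 0.0814 CPM against 0.763, 1.29 and 2.25 CPM, adjusted p = 0.0329, and 0.0749 with the block), and 1 fell, the linker histone gene H1f2 (82.1, 117 and 62.1 CPM against 21.0, 34.0 and 33.4 CPM, log2 fold change -1.52 ± 0.29, SE, adjusted p = 0.0213). Both were lost in some fits that left out 1 library, at an adjusted p of up to 0.172 and 0.0834, both without replicate 1 of Tconv.

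Among 12 AP-1, BATF and IRF4 family genes 3 rose (25.0%, against 3.54% of all genes tested), Batf (87.4, 105 and 92.6 CPM against 224, 198 and 215 CPM), Bach2 and Irf8, whose call was lost without replicate 2 of Tconv (adjusted p = 0.057). Of 16 BCL2 family genes Bcl2a1d rose (6.25%, against 3.54% of all genes tested) while Bbc3 and Bcl2l1 fell (12.5%, against 2.43%), all 3 lost in fits that left out 1 library (highest adjusted p 0.168, 0.0512 and 0.192 for Bcl2a1d, Bbc3 and Bcl2l1, without replicates 3, 1 and 1 of Tconv). For Bcl2a1d, which has near-identical copies among which reads are divided, the block gave an adjusted p of 0.0592.

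**Figure D3:**
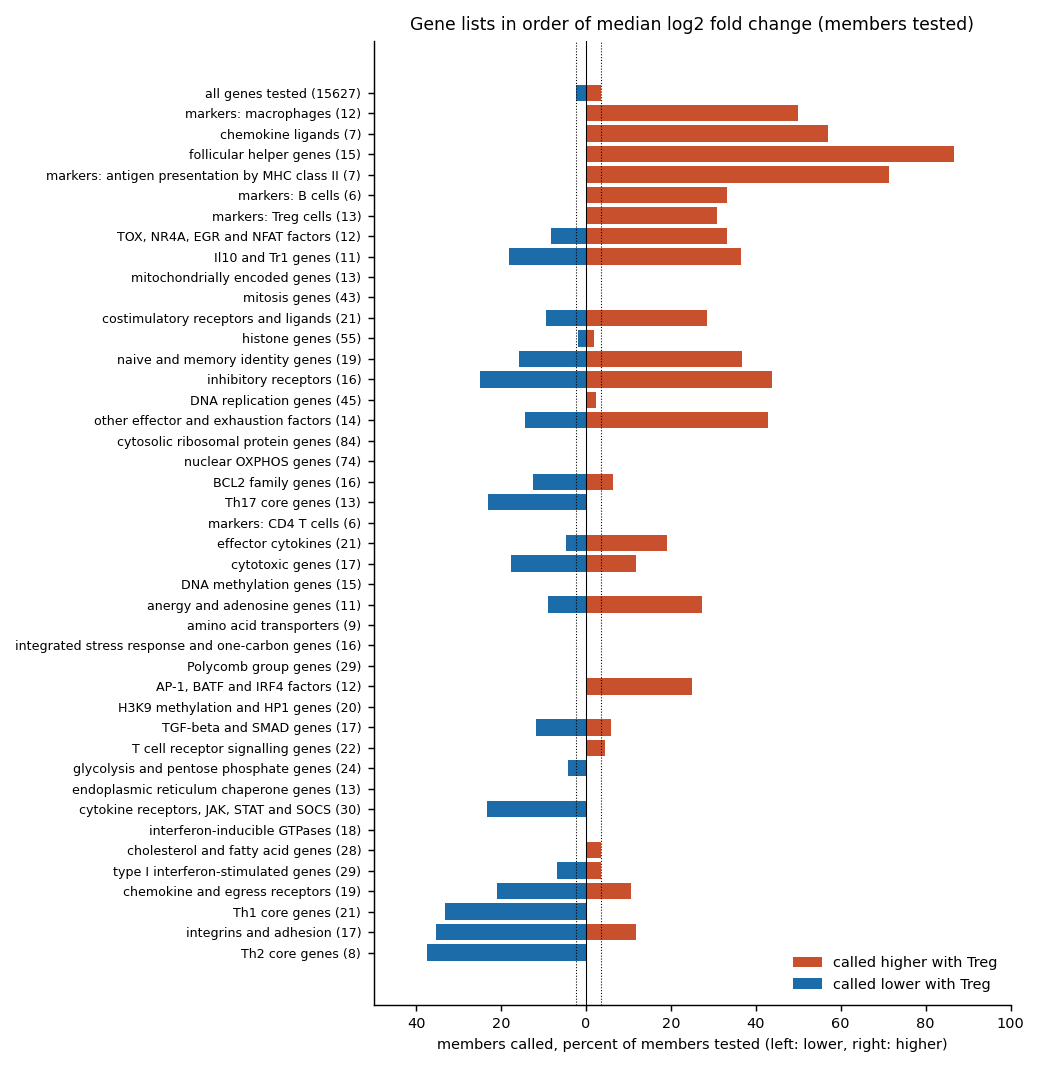
Percent of the tested members of each gene list that were called higher (red, to the right) or lower (blue, to the left) in Tconv with Treg, with lists in order of their median log2 fold change and the number of members tested in brackets. Dotted lines mark the 3.54% and 2.43% of all genes tested; 86.7% of the follicular helper genes were called higher, 33.3% of the Th1 core genes lower, and the mitosis, ribosomal, H3K9, Polycomb and DNA methylation lists have no bar.

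The 2 sets that the study compiled for Th1 cells and for exhausted T cells were counted in the same manner. The study curated them by hand with a reference for each gene, and its own analysis of these libraries used them. Of the Th1 set 69 of 75 genes were tested, and 5 rose (7.25%, against 3.54% of all genes tested) while 14 fell (20.3%, against 2.43%), or 2 and 8 without replicate 1 of Tconv. The median log2 fold change was -0.28. Of the exhaustion set 96 of 104 genes were tested, and 40 rose (41.7%) while 2, Lilrb4a and Smad3, fell (2.08%), with a median of 0.70. Without replicate 3 of Tconv with Treg 42 rose and 3 fell, and without replicate 1, 2 or 3 of Tconv 25, 23 and 27 rose. Beside the receptors and factors above, the set holds Adgrg1 (chr8:95701315-95742028), an adhesion receptor gene of cytotoxic cells, which was at 0.301, 0.254 and 0.217 CPM against 24.3, 27.8 and 35.4 CPM (log2 fold change 6.85 ± 0.31, SE, adjusted p = 0.000219). Ptpn5, a tyrosine phosphatase gene, went from 0.273, 0.233 and 0 CPM to 21.3, 39.7 and 15.0 CPM.

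The genes with the largest changes among those with a mean of at least 5 CPM were not all immune genes. The highest log2 fold change belonged to Gcg (chr2:62304873-62313997), which encodes the glucagon precursor, at 0.301, 0.0212 and 0 CPM in Tconv and 87.3, 51.1 and 403 CPM with Treg (log2 fold change 10.82 ± 1.33, SE, adjusted p = 0.00498). Its call was present in every fit that left out 1 library. Among hormone genes of the pancreas and gut examined after this value was seen, Ins1, Ins2, Pyy, Ppy and Sst had no count in these 6 libraries. The genes beside Gcg that were tested, Dpp4, Ifih1 and Slc4a10, were not called (log2 fold changes -0.29, 0.84 and -1.08, edgeR adjusted p = 0.51, 0.0522 and 0.484). Ifih1 lay higher with Treg without overlap. Fap, a neighbour that was not tested, was at 2.94 CPM in replicate 3 of Tconv with Treg and at 0.0872 CPM or less in the other libraries compared. Pcsk1, which encodes a convertase that can process this precursor, rose from 5.25, 3.43 and 1.55 CPM to 15.5, 16.8 and 15.5 CPM (adjusted p = 0.0209, with the call kept in 4 of 6 fits that left out 1 library).

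The other leading genes that rose were Ascl2, Spp1, Ptpn5, Ccl3, Itgb8 and Adgrg1, described above, with Cd109, Lpar3 and Padi4. Lpar3 (chr3:145926691-145991969), a receptor for lysophosphatidic acid, was at 0.273, 0.148 and 0.0543 CPM against 18.6, 16.2 and 12.1 CPM (log2 fold change 6.63 ± 0.52, SE, adjusted p = 0.00108). Padi4 rested on 2 libraries, with 58.2 and 41.1 CPM but 1.02 CPM in replicate 3, and its adjusted p of 0.0277 became 0.152 without replicate 3 of Tconv. Cd109 was also lowest in replicate 3, at 2.66 CPM, and its adjusted p of 0.0168 became 0.0854 without the same Tconv library.

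Among the genes that fell most, several encode proteins of adhesion, of the cell surface or of the matrix. Anxa1 (chr19:20350792-20368374), which encodes the glucocorticoid-induced annexin A1, went from 170, 179 and 242 CPM to 5.03, 8.22 and 4.71 CPM (log2 fold change -5.01 ± 0.29, SE, adjusted p = 0.000321). Mmp9 (chr2:164780439-164797771), a gelatinase gene, went from 197, 137 and 75.1 CPM to 3.95, 4.06 and 2.51 CPM (log2 fold change -5.25 ± 0.41, SE, adjusted p = 0.00108). Cdh1 (chr8:107329941-107396880), the E-cadherin gene, went from 21.0, 25.5 and 21.9 CPM to 0.763, 0.567 and 0.819 CPM. In each case the groups lay more than an order of magnitude apart, and naive cells were at 0.843 CPM or less. Gcnt2, Adgrg3, Tafa3 and Kcnj8 fell similarly (log2 fold changes -5.85, -5.16, -4.43 and -4.41), and so did Spef2 (-4.64) and Cysltr1 (-4.71), whose adjusted p reached 0.0857 without replicate 3 of Tconv and 0.182 without replicate 2 of Tconv.

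Markers of other cell types differed between the groups and are given beside these results. The summed level of 12 macrophage markers was 9.39 to 16 CPM in Tconv and 87.0 to 109 CPM with Treg, and 6 of the 12 rose, but 1 or 2 when a Tconv library was left out. Cybb was at 1.33 to 5.90 CPM against 35.7 to 73.7 CPM, whereas Lyz2, at 1.12 to 1.82 CPM against 0.523 to 6.04 CPM, overlapped. MHC class II genes summed to 81.7 to 97.3 CPM and to 151 to 457 CPM, and 5 of 7 rose (71.4%, against 3.54%), but 1 when a Tconv library was left out. In both lists some calls were lost with the block, such as Cd14 (adjusted p = 0.0636), C1qb (0.0676) and H2-Ab1 (0.0513).

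Of 11 B cell markers 6 were tested and 2, Igkc and Ighd, rose (33.3%, against 3.54% of all genes tested). The summed level of 154 to 220 CPM in Tconv and 217 to 495 CPM with Treg lay below that of naive libraries (550 to 659 CPM), and Ms4a1, which encodes CD20, was at 0.0872 CPM or less. Erythroid markers reached 49.3 CPM and neutrophil markers 40.6 CPM in replicate 3 of Tconv with Treg, against 2.10 to 3.47 CPM and 0.136 to 0.301 CPM in Tconv. Ltf, the only neutrophil marker tested, had no count in Tconv and was at least 12.3-fold higher with Treg when 3 counts per library are taken as the floor, a call lost with the block (adjusted p = 0.0537). Markers of CD8 T and NK cells summed to 7.91 to 13.8 CPM against 13.1 to 27.7 CPM, and those of CD4 T cells to 4410 to 4430 CPM against 4880 to 5830 CPM. The part of these cells in the gene changes was not tested.

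**Figure D4:**
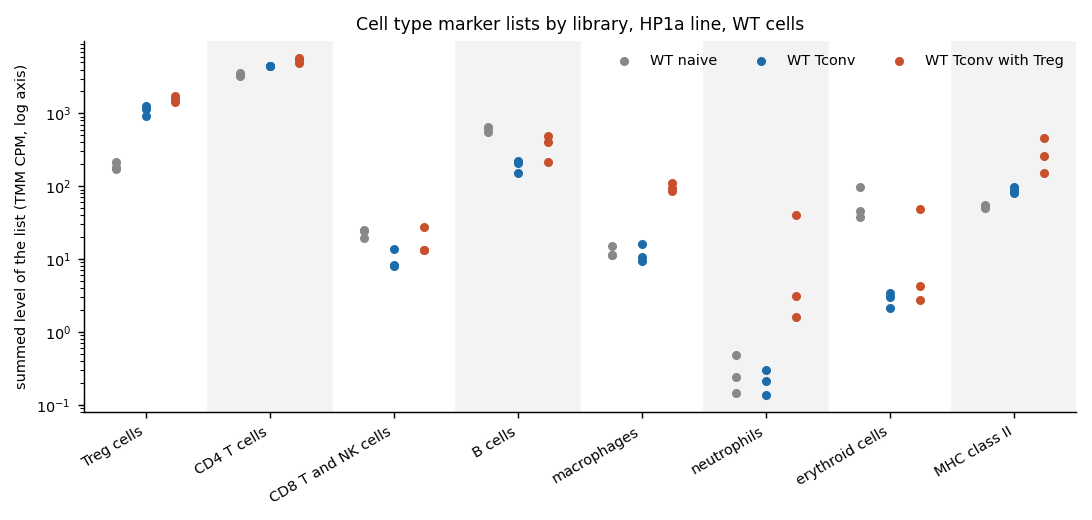
Summed level of 8 marker lists in CPM on a log axis (vertical) in each of 3 libraries of naive HP1a WT cells (grey), Tconv (blue) and Tconv with Treg (red). CD4 T cell markers sum to 3270 CPM or more in all libraries, macrophage markers are at 87.0 to 109 CPM with Treg against at most 16 CPM without, and 1 red point of the neutrophil and 1 of the erythroid list, both replicate 3, lie far above the other red points.

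Levels in naive cells place the called genes. Of the 379 genes that fell, 325 had a higher mean in Tconv than in naive cells, and 168 still had one in Tconv with Treg. Of the 553 genes that rose, 307 had a higher mean in Tconv than in naive cells and 495 had one in Tconv with Treg. Over all 15627 genes tested 51.0% had a higher mean in Tconv than in naive cells, and 51.0% had one in Tconv with Treg. Genes that fell were chosen for high values in Tconv and genes that rose for high values with Treg, which in part fixes these counts, and they were not tested.

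The same contrast was made in HP1α-deficient Tconv of the same line (HP1a KO) and in wild-type Tconv of the HP1g line, a separate mouse line. Each effect came from its own 6 libraries, with 71 of 16133 genes called in HP1a KO (0.44%) and 2 of 15903 in HP1g WT (0.0126%, 1 gene or 0.00629% in each direction, where 1095 genes had an unadjusted p under 0.05). The 553 genes that rose in HP1a WT had a median log2 fold change of 0.93 in HP1a KO and of 0.41 in HP1g WT, and the 379 that fell had medians of -0.66 and -0.26, where tested. Since the genes were chosen in HP1a WT, smaller values elsewhere follow in part from the choice, and only the test of the difference itself bears on it.

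Tested directly over 12 libraries, the effect in HP1a WT differed from that in HP1a KO for 24 of 17205 genes (0.139%), 10 more positive (0.0581%) and 14 more negative (0.0814%) in WT, while 1675 had an unadjusted p under 0.05. Lag3 was among them: its level with Treg was 56.3 ± 9.78 CPM (SD, n = 3) in HP1a WT and 6.07 ± 2.40 CPM in HP1a KO, and the difference of the log2 fold changes was 2.95 ± 0.46 (SE, adjusted p = 0.0371). Spp1 differed by 4.89 ± 0.64 (adjusted p = 0.0119), Anxa1 by -3.68 ± 0.37 (adjusted p = 0.0051), Itga1 by -2.95 ± 0.42 (adjusted p = 0.0199) and Slc2a3 by -1.68 ± 0.18 (adjusted p = 0.0051). For Pdcd1 (1.38 ± 0.35, adjusted p = 0.165), Havcr2 (2.71 ± 0.46, adjusted p = 0.0562), Tox (1.96 ± 0.45, adjusted p = 0.122) and Tbx21 (-1.24 ± 0.52, adjusted p = 0.456) the difference did not pass the edgeR test, which does not show that the effects were alike. With DESeq2 the adjusted p of the difference was 0.00969 for Pdcd1, 5.54e-06 for Havcr2, 0.00166 for Tox and 0.242 for Tbx21.

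Against HP1g WT the effect differed for 267 of 17127 genes (1.56%), 120 more positive (0.701%) and 147 more negative (0.858%) in HP1a WT. Of the HP1g-line experiment the study states that, at its ratio of Tconv to Treg, the response of wild-type cells was not effectively repressed. Line, litter, experiment and the number of Treg transferred per Tconv, which the study varied and the labels do not give, cannot be told apart in this difference. It included Lag3 (4.81 ± 0.73, SE, adjusted p = 0.00933), Havcr2 (3.28 ± 0.40, adjusted p = 0.00377), Ctla4 (1.65 ± 0.29, adjusted p = 0.0173), Tox (3.0 ± 0.53, adjusted p = 0.0173) and Il21 (4.27 ± 0.70, adjusted p = 0.0129) on the positive side. On the negative side were Ccr2 (-3.0 ± 0.39, adjusted p = 0.00496), Ifngr1 (-2.28 ± 0.31, adjusted p = 0.00642), Cxcr6 (-2.37 ± 0.38, adjusted p = 0.0119) and Il7r (-2.32 ± 0.43, adjusted p = 0.0212). Pdcd1 (2.40 ± 0.59, adjusted p = 0.0674) and Tbx21 (-1.49 ± 0.36, adjusted p = 0.0599) did not pass by edgeR, while DESeq2 gave these differences an adjusted p of 0.00144 and 0.00351.

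**Figure D5:**
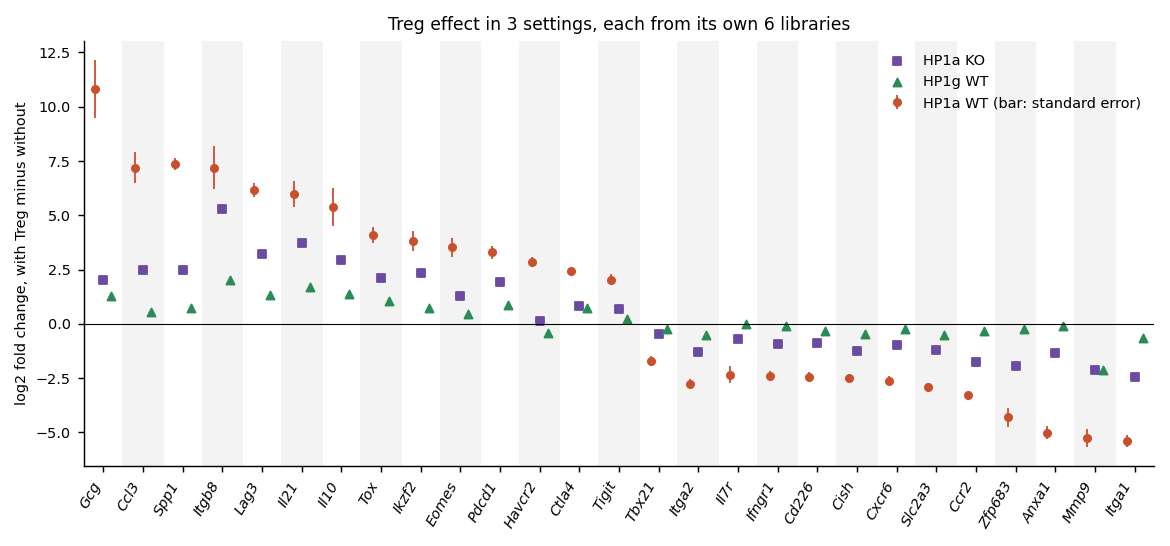
Log2 fold change with Treg against without (vertical axis) of 27 genes in HP1a WT (red circles, bars: standard error), HP1a KO (purple squares) and HP1g WT (green triangles), each from its own 6 libraries. Red circles lie farthest from 0 for every gene shown, for instance at 6.15 for Lag3 against 3.20 and 1.34, and at -3.30 for Ccr2 against -1.78 and -0.31; the genes were chosen in HP1a WT.

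Promoter sequence was surveyed as a description. The AP-1 motif TGANTCA lay on either strand in the 250 bases before the start of 6.69% of 478 genes that rose and 7.67% of 339 that fell, against 4.38% of 11957 genes tested and 6.17% of all 21770 promoters. The NFAT motif GGAAAAT was found in 5.65%, 2.95%, 3.86% and 4.47% of the same sets, the EGR motif GCGTGGGCG in 1.88%, 1.77%, 0.786% and 0.547%, and the E2F motif TTTCCCGC in 0.209%, 0.295%, 1.60% and 1.14%. A match marks letters in a window and not a bound site, and none of these shares was tested.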

How the data were processed

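RNA was taken from sorted spleen CD4+ T cells, and libraries were made with SMART-Seq v4 PLUS, which keeps no strand, and sequenced in pairs. The authors trimmed reads with Trim Galore, aligned them with STAR to the Ensembl GRCm39 genome and deposited estimated counts per gene from Salmon within nf-core/rnaseq, for 56748 genes in 36 libraries of 12 groups. Of all values in the 6 libraries compared, zeros included, 83.3% were whole numbers, and all were rounded to whole counts here.

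HP1a WT Tconv with Treg were compared with HP1a WT Tconv by edgeR 4.0.16 (R 4.3.3; quasi-likelihood test, robust, TMM factors, filterByExpr, only these 6 libraries), with Benjamini-Hochberg adjustment over all genes tested. Calls required an adjusted p under 0.05 together with a log2 fold change beyond 1 in either direction. Standard errors are the log2 fold change over the square root of F. Levels are CPM with TMM factors over 21 libraries and are comparable within a gene, not between genes. With 37029519 to 49106975 counts per library, 3 counts correspond to 0.0587 to 0.082 CPM; such floors cover counting error only. Differences between effects were interaction terms over 12 libraries. On simulated counts for 15193 genes with 200 changed in this comparison, 67.7% of changes of 2 and 73.4% of changes of 3 on the log2 scale were recovered, with 10 false calls.

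Genes were named as 54 core genes, the 10 largest changes per direction among those averaging 5 CPM or more and, per list, up to 4 called genes per direction; further genes are named as chosen later, and a few genes are not reported here. The members and the 48 lists were chosen with earlier results of these data known. Alternatives were DESeq2 1.42.0, RLE size factors, no filter, no fold threshold, the replicate number as a block, a fit of the 4 HP1a Tconv groups, and leaving out each library. Deviations of same-numbered libraries correlated at 0.0106, 0.142 and 0.0762 over all genes tested, so that not every pair passed 0.1, and at 0.106, 0.186 and 0.136 over genes averaging 5 CPM or more, a restriction chosen after seeing the data; calls lost with the block are therefore given as values. Promoter sequence and positions are from GRCm39 with GENCODE annotation.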

Additional observations from a re-analysis of the deposited data

Results flagged for a closer look

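For 8 of the named genes the effect of Treg in HP1a WT Tconv differed from that in HP1a KO Tconv by the test of the difference itself (edgeR, interaction term). All genes below were chosen in the HP1a WT libraries that enter these differences, so that their sizes are not independent of the choice. The difference of the log2 fold changes, HP1a WT minus HP1a KO, was 2.95 for Lag3 and 4.89 for Spp1. It was -2.95 for Itga1, -3.67 for Adgrg3, -3.68 for Anxa1, -3.29 for Tafa3, -1.23 for Cish and -1.68 for Slc2a3.

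Against wild-type Tconv of the HP1g line the difference passed the test for 44 named genes. Among inhibitory receptors it was 4.81 for Lag3, 3.28 for Havcr2, 1.65 for Ctla4 and 1.79 for Tigit, and it was -1.74 for Lilrb4a and -1.70 for Cd96. Among transcription factors it was 3.0 for Tox, 3.10 for Ikzf2, 1.83 for Ikzf3, 2.44 for Bcl6, 8.05 for Ascl2, 2.54 for Myb and 1.83 for Irf8, and it was -4.08 for Zfp683 and -1.54 for Rora. Among cytokines, chemokines and their receptors it was 4.27 for Il21, 6.63 for Ccl3, 6.70 for Ccl4, 6.63 for Spp1 and 1.57 for Tnfsf8, and it was -2.32 for Il7r, -2.28 for Ifngr1, -2.37 for Cxcr6 and -3.0 for Ccr2.

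Among the other surface and signalling genes it was 3.23 for Tnfrsf9, 1.92 for Ubash3b, 5.37 for Ptpn5, 4.59 for Lpar3, 9.54 for Gcg and 3.37 for Cybb. It was -2.12 for Cd226, -4.78 for Itga1, -2.25 for Itga2, -4.24 for Adgrg3, -4.12 for Cdh1, -4.92 for Anxa1, -3.26 for Ifitm3, -2.03 for Cish, -2.38 for Slc2a3, -1.58 for Bbc3 and -1.49 for Ctsw. It was also -4.84 for Gcnt2, -4.49 for Spef2 and -3.50 for Tafa3. Line, litter, experiment and the number of Treg transferred per Tconv, which the labels do not give, cannot be told apart in these values.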

How the results depend on the processing

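The number of genes called in HP1a WT moved by more than 1.5 times under some settings. DESeq2 called 1555 genes (997 higher), and fits that left out 1 library called 306 to 1450 (179 to 890 higher and 127 to 560 lower). The effect that differed from HP1a KO did so for 335 genes with DESeq2 (159 and 176), 65 without a filter on low counts (28 and 37) and 9 to 91 when 1 library was left out (2 to 48 more positive, 7 to 63 more negative). The effect that differed from HP1g WT did so for 797 genes with DESeq2 (438 and 359) and 75 to 448 when 1 library was left out (34 to 228 and 41 to 228). With the replicate number as a block 781 genes were called, 707 of them among the 932, and 5 were more positive in HP1a WT than in HP1a KO. The block ended the call of 12 of 148 named genes tested and added 2, and every library with Treg correlated best with the Tconv library of its own number, a hint from the data and not from the design. Of 121 named genes called, 57 were called in every fit that left out 1 library. No called gene among those named turned its direction. Among genes that were not called, the log2 fold change ran over 0 when 1 library was left out, from -0.22 to 0.30 for Nr4a1, -0.40 to 0.07 for Entpd1, -0.45 to 0.08 for Ifng, 0.00 to 0.71 for Tcf7, -0.11 to 0.53 for Gzmb, -0.07 to 0.47 for Mcm2 and -0.26 to 0.18 for Cd4. The causes were not tested. Genes near 3 counts per library carry fitted changes that depend on the prior count.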

Other observations

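Gene families recognised by their symbols, chosen after the values had been seen, held further changes. Of 5 Ifitm genes tested, which encode membrane proteins that restrict virus entry, 0 rose and 3 fell, against 2.43% of all genes tested that fell. Ifitm1 was at 461, 503 and 549 CPM in Tconv and at 9.08, 37.0 and 29.2 CPM with Treg, Ifitm2 at 455, 594 and 634 CPM against 20.4, 43.1 and 55.5 CPM and Ifitm3 at 192, 184 and 241 CPM against 9.78, 15.0 and 12.2 CPM. All 3 lay at 0.511 CPM or less in naive cells, and reads may be divided among these similar neighbours on chromosome 7. Of 64 glycosyltransferase and sulfotransferase genes 4 rose and 10 fell, against 3.54% and 2.43% of all genes tested, and 3 of these 14 calls were present in every fit that left out 1 library. Among the 3 was Hs3st3b1, a heparan sulfate sulfotransferase gene (91.9, 88.4 and 108 CPM against 7.10, 18 and 11.2 CPM). Of 4 Sprouty and Spred genes, inhibitors of receptor tyrosine kinase signalling, 2 rose and 0 fell, against 3.54% of all genes tested that rose. Spry1 went from 17.9, 13.4 and 9.20 CPM to 95.7, 87.2 and 45.1 CPM. Of 4 Hmgn genes, which encode nucleosome-binding proteins, 2 rose, Hmgn1 and Hmgn3 (log2 fold changes 1.66 and 4.2), against the same 3.54%.

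Further single genes chosen after their values were seen were called in every fit that left out 1 library. Igf1r, the receptor gene for insulin-like growth factor 1, went from 6.23, 4.35 and 3.96 CPM to 61.9, 52.5 and 56.3 CPM (log2 fold change 3.59 ± 0.23, SE, adjusted p = 0.00052, edgeR), and the calcium channel gene Cacna1d from 0.465, 0.742 and 0.217 CPM to 24.7, 44.1 and 37.5 CPM. In the other direction, Adam8, a metalloprotease gene, went from 249, 268 and 267 CPM to 39.6, 32.1 and 27.9 CPM (log2 fold change -2.94 ± 0.17, SE, adjusted p = 0.000309), and Epas1, which encodes HIF-2α, from 18.9, 25.1 and 27.2 CPM to 1.66, 0.72 and 2.23 CPM.

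T cell receptor α segments were spread unevenly among libraries. The 5 most used Trav segments made up 33.1%, 19.2% and 56.7% of Trav counts in Tconv and 48.2%, 26.9% and 44.2% in Tconv with Treg, against 18.9% to 19.6% in naive cells. The 2 transferred groups overlapped.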
